A study of Mus musculus with 107 samples.

Results

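The Cck+ and the Cort+ neurons of the mouse cerebral cortex were compared through the mRNA on their ribosomes. The members were the 3 Cck+ and the 3 Cort+ arrays of translating ribosome affinity purification (TRAP), 6 arrays of the 107 in the series, chosen by their labels, with the 9 arrays of unbound cortex RNA as the tissue reference. The series profiled 24 TRAP populations of the mouse central nervous system. In TRAP, mice carry a bacterial artificial chromosome (BAC) in which the regulatory DNA of a chosen gene, the driver, controls a ribosomal protein with a tag, so that the ribosomes of the cells using that driver can be pulled out of a tissue extract. The unbound RNA is what remained after that step. The Cck+ neurons came from the driver cck in line GM391 and the Cort+ neurons from the driver cort in line GM130. The unbound arrays came from 9 lines, of which 1 was GM391 and none was GM130. All these mice therefore carried a BAC transgene. Their age, sex and number per preparation are not given in the sources used here. Each population is 1 line, so a difference between the cell types and a difference between the 2 insertions cannot be told apart.

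Cck encodes cholecystokinin, a peptide that pyramidal neurons and one class of cortical interneurons both make. Cort encodes cortistatin, a peptide related to somatostatin that is made by cortical interneurons, many of which also make somatostatin (Sst). Interneurons release GABA and most arise in the medial or the caudal ganglionic eminence (MGE, CGE), whereas pyramidal neurons release glutamate and arise in the cortical wall.

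The promoters of the drivers and of Sst, the gene with the largest difference, are shown because the 2 lines are defined by the first pair and differed most in the third gene. Each is the RefSeq window of 300 bases in GRCm38.p6 around the gene's start, written 5′ to 3′ on the gene's strand. Cck lies on the minus strand at chr9:121495645-121495944, Cort on the minus strand at chr4:149126714-149127013 and Sst on the minus strand at chr16:23890795-23891094. Capitals mark 3 motifs searched on both strands: the palindromic cyclic AMP response element TGACGTCA, its variant TGCGTCA, and TAATTA, a core that homeodomain proteins bind.
Cck: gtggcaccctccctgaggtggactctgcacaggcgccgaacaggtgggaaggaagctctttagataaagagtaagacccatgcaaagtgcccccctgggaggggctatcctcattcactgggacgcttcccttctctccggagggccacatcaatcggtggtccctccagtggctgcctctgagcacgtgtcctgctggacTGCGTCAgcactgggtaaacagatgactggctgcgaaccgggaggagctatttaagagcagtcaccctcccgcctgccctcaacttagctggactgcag
Cort: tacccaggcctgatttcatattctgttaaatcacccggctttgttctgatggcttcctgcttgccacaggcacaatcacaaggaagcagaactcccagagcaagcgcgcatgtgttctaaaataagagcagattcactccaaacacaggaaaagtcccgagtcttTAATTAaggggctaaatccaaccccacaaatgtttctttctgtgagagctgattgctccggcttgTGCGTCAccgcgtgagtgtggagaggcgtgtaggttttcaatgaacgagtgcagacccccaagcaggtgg
Sst: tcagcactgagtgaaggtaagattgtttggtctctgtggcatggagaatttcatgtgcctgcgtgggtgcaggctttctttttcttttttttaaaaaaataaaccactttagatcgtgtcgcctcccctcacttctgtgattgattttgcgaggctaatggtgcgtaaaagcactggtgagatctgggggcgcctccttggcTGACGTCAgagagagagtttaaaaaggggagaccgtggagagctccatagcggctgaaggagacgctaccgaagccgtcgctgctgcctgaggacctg
The variant TGCGTCA stood in the Cck window, starting 49 bases before the gene's start, and in the Cort window, starting 20 bases before it. The palindromic element stood in the Sst window, starting 48 bases before the start, and TAATTA in the Cort window alone. Of all 32851 RefSeq promoter windows of this length, 2.12% held TGCGTCA, 1.79% held TGACGTCA and 5.29% held TAATTA. The matches describe the letters and say nothing of what binds there.

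Levels are scaled log2 intensities: an increase of 1 is a doubling of signal, and 6 was the minimum for a gene to be tested. The lowest value was 1.82 in the Cck+ arrays and 1.97 in the Cort+ arrays, so a gene at these values was not measured above the floor. Over the 9448 genes with a mean of at least 6 in Cck+ or Cort+ TRAP, arrays correlated at 0.99 to 0.995 within Cck+, at 0.989 to 0.998 within Cort+ and at 0.831 to 0.857 between them. Cort+ replicate 2 lay more than 1 log2 unit from its group's median in 86 of these genes, against 3 and 1 in the other Cort+ arrays, while the Cck+ arrays had 46, 8 and 39. Of the genes at 6 or more, 12% in Cck+ and 15.8% in Cort+ had the same value in all 3 arrays, which makes their errors and adjusted p-values too small.

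Cck read 13.89, 13.46 and 13.37 in the Cck+ arrays and 12.59, 13.11 and 12.91 in the Cort+ arrays. Its unbound values had a lowest of 12.44, a median of 12.96 and a highest of 13.74. The Cck+ arrays all stood above the Cort+ arrays, but they overlapped the unbound range. The difference of Cck+ minus Cort+ was 0.71 ± 0.68 (SE, n = 3 each; limma adjusted p = 0.38), with a 95% interval of 1.35 on each side. Here and below the SE is that of the limma fit, whose spread is shared over all 30 groups of the series. It can therefore exceed the spread of the 3 and 3 arrays compared. Cck was therefore abundant in both lines and was not called different. Among the 24 populations Cck+ neurons ranked 2 in Cck, at 13.58 ± 0.28 (SD, n = 3), behind layer 5b neurons at 13.78 ± 0.12, and Cort+ neurons ranked 6 at 12.87 ± 0.26. The Cck+ and layer 5b levels overlapped within their SDs.

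Cort read 1.82 in each Cck+ array and 9.17, 8.94 and 9.32 in the Cort+ arrays. In unbound cortex its lowest and median were both 1.87 and its highest was 2.98. The Cort+ arrays were separate from all others, and Cort was at least 8.83-fold lower in Cck+ TRAP (limma adjusted p = 1.5e-59) and at least 8.83-fold higher in Cort+ TRAP than in unbound cortex (limma adjusted p = 5.6e-65). The only other population with a clear Cort signal was the Pnoc+ neurons of cortex at 7.10 ± 0.28 (SD, n = 3). The next highest, Drd1+ medium spiny neurons, stood at 3.53. Rpl10a, a protein of the large ribosomal subunit, read 14.34, 13.98 and 13.92 in Cck+ TRAP and 13.94, 14.41 and 14.21 in Cort+ TRAP, with a median of 13.38 in unbound cortex. The Cck+ and Cort+ values of Rpl10a overlapped.

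**Figure D1:**
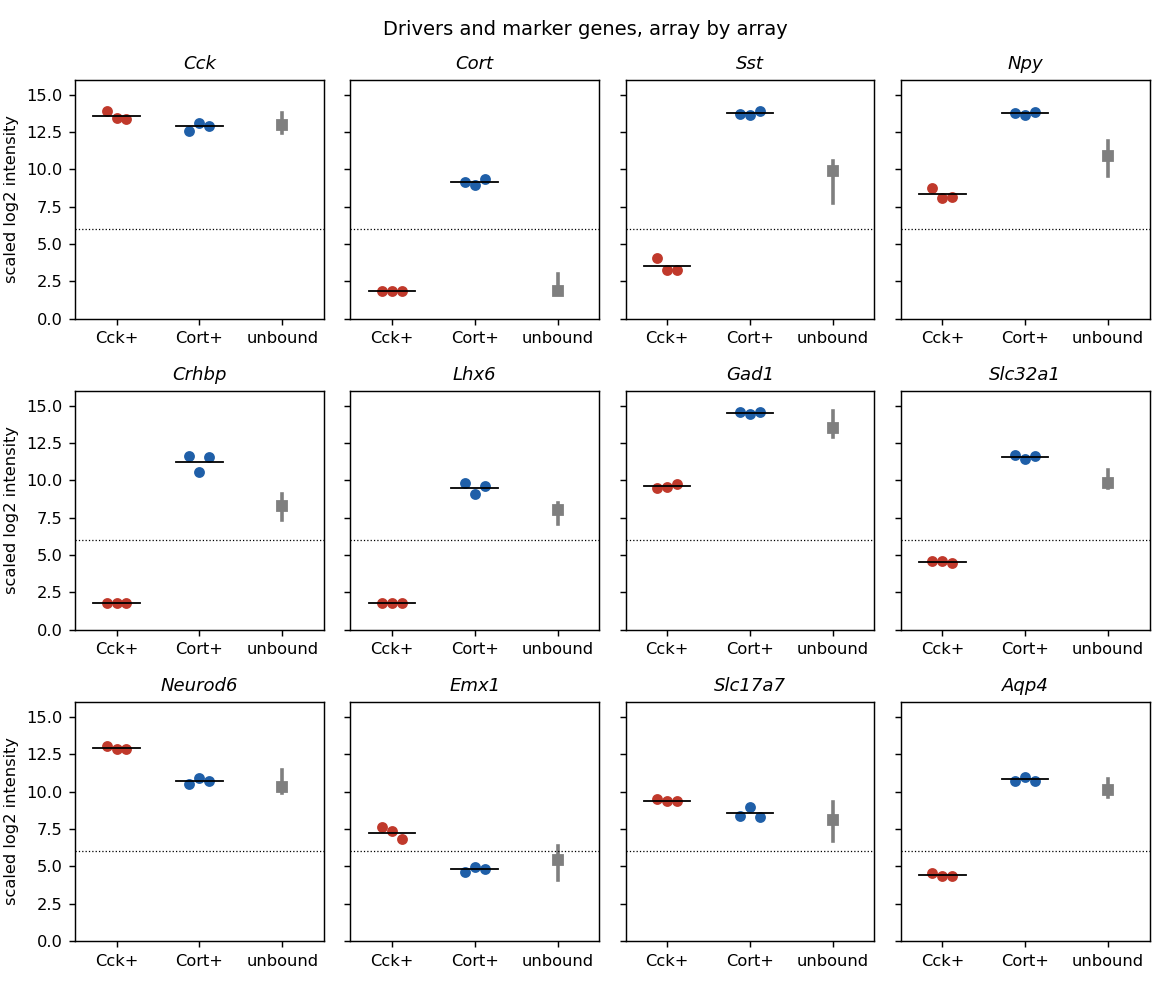
Scaled log2 intensity (y axis, linear) of 12 genes in Cck+ TRAP, Cort+ TRAP and unbound cortex. Points are single arrays, short black lines are means of 3 arrays, grey bars run over the 9 unbound arrays with the median as a square, and the dotted line is the minimum of 6. Cck is near 13 in all groups, Cort and Sst are high in Cort+ TRAP, and Neurod6 is high in Cck+ TRAP.

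Markers of other cell types also differed between the lines, and they stand beside every count below. The 17 astrocyte markers measured summed to an intensity of 5110 to 6990 in the Cck+ arrays, 36700 to 48800 in the Cort+ arrays and 26700 to 60000 in unbound cortex. The 14 markers of myelinating oligodendrocytes summed to 6250 to 9980 in Cck+ TRAP, 53400 to 89400 in Cort+ TRAP and 27900 to 66600 in unbound cortex. Both sums were therefore lower in every Cck+ array than in any other array shown, and the Cort+ sums reached the tissue level.

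The water channel Aqp4, of astrocytes, read 4.52, 4.34 and 4.34 in Cck+ TRAP and 10.72, 11.01 and 10.72 in Cort+ TRAP, with an unbound median of 10.13. The myelin gene Mag read 3.38 in all 3 Cck+ arrays and 8.85, 8.89 and 8.85 in Cort+ TRAP, with an unbound median of 7.45. Pdgfra, which marks oligodendrocyte progenitors, was 2.31 in all 3 Cck+ arrays, against 8.95, 10 and 8.99 in Cort+ TRAP. For these 3 genes no Cck+ array reached the minimum of 6.

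All 15 microglia and macrophage markers were under 6 in Cck+ TRAP, where they summed to 137 in each array, against 2100 to 5780 in Cort+ TRAP and 931 to 4840 in unbound cortex. C1qb, a complement gene of microglia, read 4.97 in all Cck+ arrays and 9.33, 11.25 and 9.39 in the Cort+ arrays. Cort+ replicate 2 was the highest of its group in this gene. Ttr, the transthyretin of choroid plexus, read 1.82, 4.31 and 1.82 in Cck+ TRAP and 13.57, 8.06 and 13.90 in Cort+ TRAP, and ran over 7.08 to 13.38 in unbound cortex. In Ttr, Cort+ replicate 2 was the lowest of its group. The 14 vascular markers summed to 211 to 221 in Cck+ TRAP, 1300 to 1530 in Cort+ TRAP and 699 to 1300 in unbound cortex. The 7 markers of striatal medium spiny neurons summed to 980 to 1180 in Cck+ TRAP, 2470 to 3070 in Cort+ TRAP and 2480 to 4940 in unbound cortex. Aqp4 was also low in Pnoc+ TRAP, at 4.71, and stood at 9.52 to 11.69 in the populations of layers 5a, 5b and 6. The part of these markers in the differences described below was not tested. These sums are levels in TRAP and unbound RNA and do not measure how many cells of a type the cortex held. The source of these markers in TRAP RNA was not tested.

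**Figure D2:**
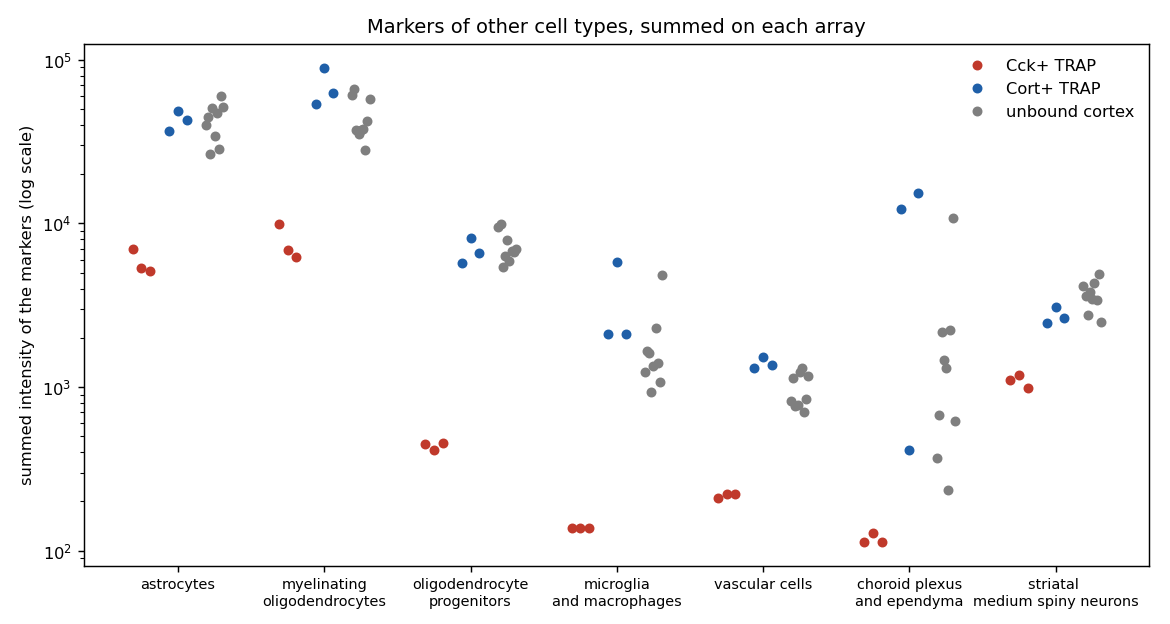
Summed intensity (y axis, log scale) of the markers of 7 other cell types, 1 point per array, for Cck+ TRAP, Cort+ TRAP and unbound cortex. The Cck+ arrays are the lowest for every list and the Cort+ arrays overlap the unbound range for most.

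Of 18194 genes, 6986 reached the minimum and were higher than unbound cortex in Cck+ or Cort+ TRAP, and these were tested. Higher in Cck+ TRAP were 648 genes (9.28%), and higher in Cort+ TRAP were 1512 (21.6%), at a limma adjusted p under 0.05 and a difference of at least 2-fold. Percentages of list members below are shares of the tested genes of the list, to be read against this 9.28% and 21.6%. A gene under unbound cortex in one line could be called only towards the other, so the filter fixed the direction of such calls. The larger Cort+ count depended on the scaling. After quantile normalization over all arrays 1353 genes were higher in Cck+ and 862 in Cort+, and 648 (9.28%) and 860 (12.3%) were called under both scalings. The median of the tested genes was -0.13 log2 units with control scaling and 0.28 with quantile normalization, so a single gene's change is to be read against these medians. The arrays of the 2 lines did not overlap in 76.5% of the tested genes. Of the genes higher in Cck+, 452 were also called higher than unbound cortex in Cck+ TRAP. Of those higher in Cort+, 423 were also called higher than unbound cortex in Cort+ TRAP, and 744 were called lower than unbound cortex in Cck+ TRAP.

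**Figure D3:**
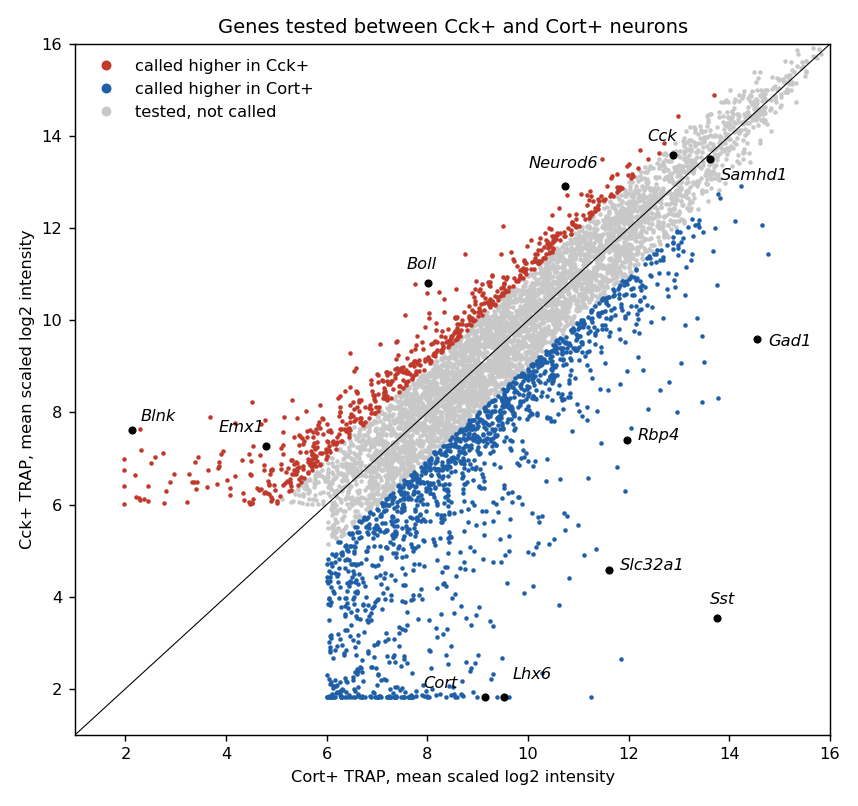
Mean scaled log2 intensity of the tested genes in Cort+ TRAP (x axis) and Cck+ TRAP (y axis), 3 arrays each, with genes called higher in Cck+ in red, higher in Cort+ in blue and not called in grey. The 1512 blue genes include many at the Cck+ floor of 1.82, and the 648 red genes include fewer at the Cort+ floor of 1.97.

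Genes of GABA synthesis and transport were lower in Cck+ than in Cort+ TRAP. Of 7 listed genes 6 were measured, 2 were under the minimum in both lines and 3 were tested. All 3 were higher in Cort+ TRAP. Each of them was called lower in Cck+ TRAP than in unbound cortex, so this direction was fixed by the filter. The median of the 6 measured was -4.4, against -0.15 over all genes. Gad1, which makes GABA, read 9.52, 9.55 and 9.74 in Cck+ TRAP and 14.56, 14.48 and 14.60 in Cort+ TRAP, with unbound values of 12.94 to 14.67 around a median of 13.53. It was 30.8-fold lower in Cck+ TRAP (-4.94 ± 0.33, SE, n = 3 each; limma adjusted p = 4.2e-23), and every Cck+ array stood below every other array. Slc32a1, which loads GABA into vesicles, read 4.63, 4.63 and 4.45 in Cck+ TRAP and 11.71, 11.43 and 11.66 in Cort+ TRAP, with unbound values of 9.50 to 10.73. Both groups lay outside the unbound range, on opposite sides of it, and the Cck+ level was at least 48.4-fold lower (limma adjusted p = 2.1e-38).

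Gad2, the second GABA-making enzyme, read 2.52 in all 3 Cck+ arrays and 10.24, 9.87 and 10.24 in the Cort+ arrays. It was not tested between the lines because the Cort+ mean did not exceed the unbound mean, and it was called lower in Cck+ TRAP than in unbound cortex, by -7.79 log2 units. Abat, which degrades GABA, differed by -3.86 with control scaling and was not among the genes tested after quantile normalization. Among 6 cortical neuron populations the Cck+ neurons had the lowest Gad1 level, at a mean of 9.60. The Pnoc+ population stood at 13.34 and the populations of layers 5a, 5b and 6 at 15.02, 14.68 and 14.92, close to the Cort+ mean of 14.55.

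Most transcription factors of MGE-derived interneurons were under the minimum in Cck+ TRAP, with Satb1 and Maf as the exceptions. Of 13 listed factors 10 were measured and 7 tested, and 6 of these (85.7%) were higher in Cort+ and none in Cck+, also under both scalings. Lhx6, Sox6, Maf and Dlx1 were called lower in Cck+ TRAP than in unbound cortex, and Dlx2 and Dlx6 were at the Cck+ floor. The direction of these 6 was therefore fixed by the filter. The median of the 10 measured was -3.76, against -0.15 over all 18194 genes. Lhx6, which MGE-derived interneurons need for their specification, read 1.82 in all 3 Cck+ arrays and 9.80, 9.10 and 9.65 in the Cort+ arrays, with an unbound median of 8.04. Sox6, which acts with it in their maturation, read 1.82 in all Cck+ arrays and 9.38, 9.39 and 9.39 in Cort+ TRAP, with an unbound median of 8.51. Lhx6 was at least 11.4-fold lower in Cck+ TRAP (limma adjusted p = 2.3e-54) and Sox6 at least 10.5-fold lower (limma adjusted p = 2.3e-40).

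Dlx1, Dlx2 and Dlx6, homeobox genes of forebrain GABA neurons, were also at 1.82 in every Cck+ array. Their Cort+ arrays ran over 8.07 to 8.93 for Dlx1, 6.63 to 7.30 for Dlx2 and stood at 6.28 in all 3 for Dlx6. Dlx1 and Sox6 were not called between Cort+ TRAP and unbound cortex, whereas Lhx6, Dlx2 and Dlx6 were higher in Cort+ TRAP. Satb1, which is active in MGE-derived interneurons and in some pyramidal neurons, read 12.55, 12.44 and 12.29 in Cck+ TRAP and 12.89, 12.88 and 12.88 in Cort+ TRAP. It did not pass the test between the lines (limma adjusted p = 0.13).

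Of 9 listed factors of CGE-derived interneurons, all measured, 4 were tested and 2 (50%) were higher in Cort+. Npas1, a bHLH-PAS factor, read 1.82 in all Cck+ arrays and 8.09, 7.81 and 8.07 in Cort+ TRAP, with an unbound median of 4.28. Its relative Npas3 read 2.85, 2.27 and 2.27 in Cck+ TRAP and 8.83, 8.83 and 8.95 in Cort+ TRAP. Npas1 was thus above the whole unbound range in Cort+ TRAP, while the Cort+ values of Npas3 lay inside the unbound range of 7.81 to 9.61. The orphan receptor genes Nr2f1 and Nr2f2, which CGE-derived cells and other neurons express, did not pass the test, with differences of 0.55 and -0.49.

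**Figure D4:**
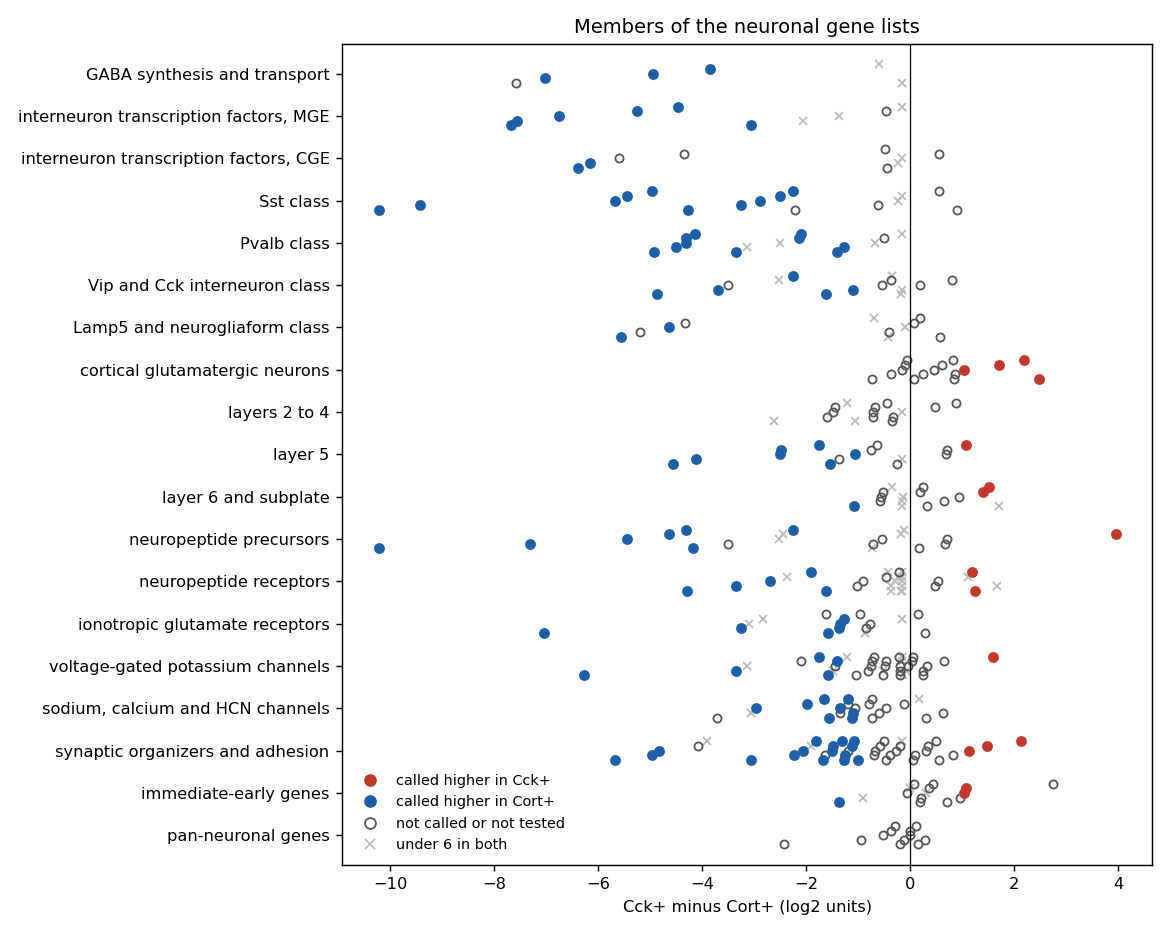
Difference of Cck+ minus Cort+ TRAP (x axis, log2 units) for the measured members of 19 neuronal gene lists (rows). Filled points were called higher in Cck+ (red) or in Cort+ (blue), open points were not called or not tested and crosses were under 6 in both. Interneuron lists lie mostly left of 0, and cortical glutamatergic neurons have 4 red points and no blue one.

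The somatostatin class showed the largest single differences. Of 16 listed genes, all measured, 13 were tested, 10 (76.9%) were higher in Cort+ and none in Cck+. Under both scalings 9 of the 10 were called. Of the 10, Sst, Npy, Nos1, Grin3a, Crhbp, Nxph1, Reln and Kit were called lower in Cck+ TRAP than in unbound cortex. Their direction was therefore fixed by the filter. The median of all 16 was -2.71. Sst read 4.05, 3.27 and 3.27 in Cck+ TRAP and 13.72, 13.61 and 13.93 in Cort+ TRAP, with a lowest of 7.72, a median of 9.89 and a highest of 10.53 in unbound cortex. The 2 lines lay on opposite sides of the tissue, by -6.13 and 4.09 log2 units. Sst was at least 215-fold lower in Cck+ TRAP (limma adjusted p = 1.4e-32).

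Crhbp, which binds corticotropin-releasing hormone, read 1.82 in all Cck+ arrays and 11.63, 10.59 and 11.55 in the Cort+ arrays, with unbound values of 7.36 to 9.11. Npy, the neuropeptide Y gene, read 8.75, 8.08 and 8.14 in Cck+ TRAP and 13.78, 13.65 and 13.87 in Cort+ TRAP, with unbound values of 9.55 to 11.88. For both genes each line lay outside the unbound range. Npy was 43.6-fold lower in Cck+ TRAP (limma adjusted p = 2.6e-21) and Crhbp at least 38.3-fold lower (limma adjusted p = 9.7e-44). Npy was not highest in Cort+ among the cortical populations, since Pnoc+ neurons had a mean of 14.42. Crhbp was highest in Cort+, at 11.26 ± 0.58 (SD, n = 3), but was also high in layer 5a, at 10.58 ± 0.45. In layers 5b and 6 it stood at 9.86 and 9.03.

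Nos1 and Chodl mark the long-range somatostatin neurons. Nos1, the neuronal nitric oxide synthase, read 5.91, 5.91 and 5.90 in Cck+ TRAP and 8.76, 8.98 and 8.68 in Cort+ TRAP. Chodl read 1.91 in all Cck+ arrays and 6.39, 5.96 and 6.2 in Cort+ TRAP, close to the minimum, and was not among the genes tested after quantile normalization. Elfn1, a postsynaptic protein of somatostatin cells that shapes the synapses they receive, read 1.82 in all Cck+ arrays and 7.70, 7.15 and 7.70 in Cort+ TRAP. The extracellular protein gene Reln was 5.71-fold lower in Cck+ TRAP (limma adjusted p = 3.6e-14). Calb1, a calcium-binding protein of somatostatin and upper-layer pyramidal neurons, differed by -0.62 and did not pass the test (limma adjusted p = 0.14).

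Genes of the parvalbumin class followed the same direction. Of 17 listed genes 15 were measured, 4 were under the minimum in both lines and 11 were tested. Higher in Cort+ were 10 (90.9%), also under both scalings, and the median of the 15 measured was -2.51. Pvalb, Kcnc2, Syt2, Tac1, Cox6a2 and Btbd11 were called lower in Cck+ TRAP than in unbound cortex, so their direction was fixed by the filter. Pvalb, the calcium-binding parvalbumin, read 8.04, 8.03 and 7.97 in Cck+ TRAP and 13.08, 12.67 and 13.09 in Cort+ TRAP, with unbound values of 10.67 to 12.36. It was 30.6-fold lower in Cck+ TRAP (limma adjusted p = 1.5e-19), and each line lay outside the unbound range. Tac1, the substance P precursor, was 19.8-fold lower in Cck+ TRAP (limma adjusted p = 1.6e-23), and Cox6a2, a respiratory-chain subunit, at least 5.59-fold lower (limma adjusted p = 2.0e-31). Kcnc1 and Kcnc2 encode fast potassium channels of rapidly firing neurons. Kcnc1 differed by -1.41 and Kcnc2 by -3.35, and the call of Kcnc1 ended with the mean of all its probe sets, at -0.58. Cplx1, a complexin of transmitter release, differed by -0.50, under the 2-fold bound.

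Markers of Vip, Cck and CGE interneurons were fewer. Of 15 listed genes 14 were measured and 9 tested, and 5 (55.6%) were higher in Cort+ and none in Cck+. Cnr1, the cannabinoid receptor that Cck interneurons carry on their terminals, read 10.93, 10.94 and 10.66 in Cck+ TRAP and 11.80, 12.04 and 12.02 in Cort+ TRAP, with unbound values of 10.39 to 12. The Cck+ arrays stood below all the Cort+ arrays, and Cnr1 was 2.16-fold lower in Cck+ TRAP (limma adjusted p = 4.9e-04). That call was lost without the control scaling, at -0.94. Calb2, the calcium-binding calretinin, read 4.96, 4.49 and 4.49 in Cck+ TRAP and 8.37, 8.31 and 8.37 in Cort+ TRAP. Crh, the corticotropin-releasing hormone gene, read 10.86, 10.47 and 10.22 in Cck+ TRAP and 12.66, 12.77 and 12.91 in Cort+ TRAP.

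Vip itself read 9.13, 8.05 and 7.91 in Cck+ TRAP and 11.60, 12.12 and 11.87 in Cort+ TRAP. The unbound values of Vip ran over 11.37 to 12.63, and Vip was not tested between the lines because neither line's mean exceeded the unbound mean. Pnoc+ neurons had a mean Vip level of 14.68. Htr3a, the ionotropic serotonin receptor of CGE interneurons, was far under the minimum in both lines, at 1.82 to 1.83 in Cck+ TRAP and 2.18 in all Cort+ arrays, but stood at 9.29 in Pnoc+ neurons. Among 11 genes of the Lamp5 and neurogliaform class, 4 were tested and 2 (50%), Dock5 and Pnoc, were higher in Cort+. With control scaling no member of these interneuron lists was called higher in Cck+ TRAP. A member under unbound cortex in Cck+ TRAP could not be called so. After quantile normalization 1 member of the somatostatin class, the adhesion gene Igsf21, and 1 of the Vip and Cck class, the chemokine gene Cxcl14, were called higher in Cck+. With control scaling Igsf21 differed by 0.89 and Cxcl14 by 0.81.

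Some genes of cortical glutamatergic neurons were higher in Cck+ TRAP. Of 18 listed genes 16 were measured and 8 tested, since the other 8 did not exceed unbound cortex. Of those tested, 4 (50%) were higher in Cck+ and none in Cort+. The 16 ran over -0.74 to 2.47 with a median of 0.53, against -0.15 over all genes. Camk2a, the kinase of excitatory synapses, was the lowest of them, with 10.20, 10.19 and 10.38 in Cck+ TRAP and 10.55, 11.46 and 10.98 in Cort+ TRAP, and was not tested between the lines. Neurod6, a bHLH factor of pyramidal neurons, read 13.08, 12.86 and 12.82 in Cck+ TRAP and 10.53, 10.94 and 10.72 in Cort+ TRAP, with unbound values of 9.88 to 11.43. The Cck+ arrays stood above all others, and Neurod6 was 4.58-fold higher than in Cort+ TRAP (2.19 ± 0.66, SE, n = 3 each; limma adjusted p = 0.0036). Emx1, the homeobox gene of the cortical wall, read 7.61, 7.35 and 6.82 in Cck+ TRAP and 4.59, 4.98 and 4.81 in Cort+ TRAP, with unbound values of 4.08 to 6.35. Emx1 was at least 2.39-fold higher in Cck+ TRAP (limma adjusted p = 2.3e-17).

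Lmo4, a LIM-domain cofactor, read 11.06, 10.78 and 10.51 in Cck+ TRAP and 8.95, 9.21 and 9.08 in Cort+ TRAP, where it was also called lower than unbound cortex. Nrgn, the calmodulin-binding neurogranin of pyramidal dendrites, was 2.04-fold higher in Cck+ TRAP (limma adjusted p = 0.034). That call was lost when Cck+ replicate 1 or 2 or Cort+ replicate 1 or 3 was left out, with adjusted p of 0.11, 0.064, 0.093 and 0.073. Slc17a7, the vesicular glutamate transporter of cortical pyramidal neurons, read 9.48, 9.35 and 9.37 in Cck+ TRAP and 8.37, 8.97 and 8.30 in Cort+ TRAP, with unbound values of 6.66 to 9.30. The arrays of the lines did not overlap, but the difference of 0.86 ± 0.59 (SE, n = 3 each) did not pass the test (limma adjusted p = 0.21). Slc17a7 was at 3.10 in Pnoc+ neurons, well below both lines. Tbr1, a transcription factor of deep-layer pyramidal neurons, also did not pass, at a difference of 0.61 ± 0.51 (limma adjusted p = 0.31), and Neurod2 differed by 0.83, under the 2-fold bound with control scaling and past it, at 1.13, with quantile normalization.

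**Figure D5:**
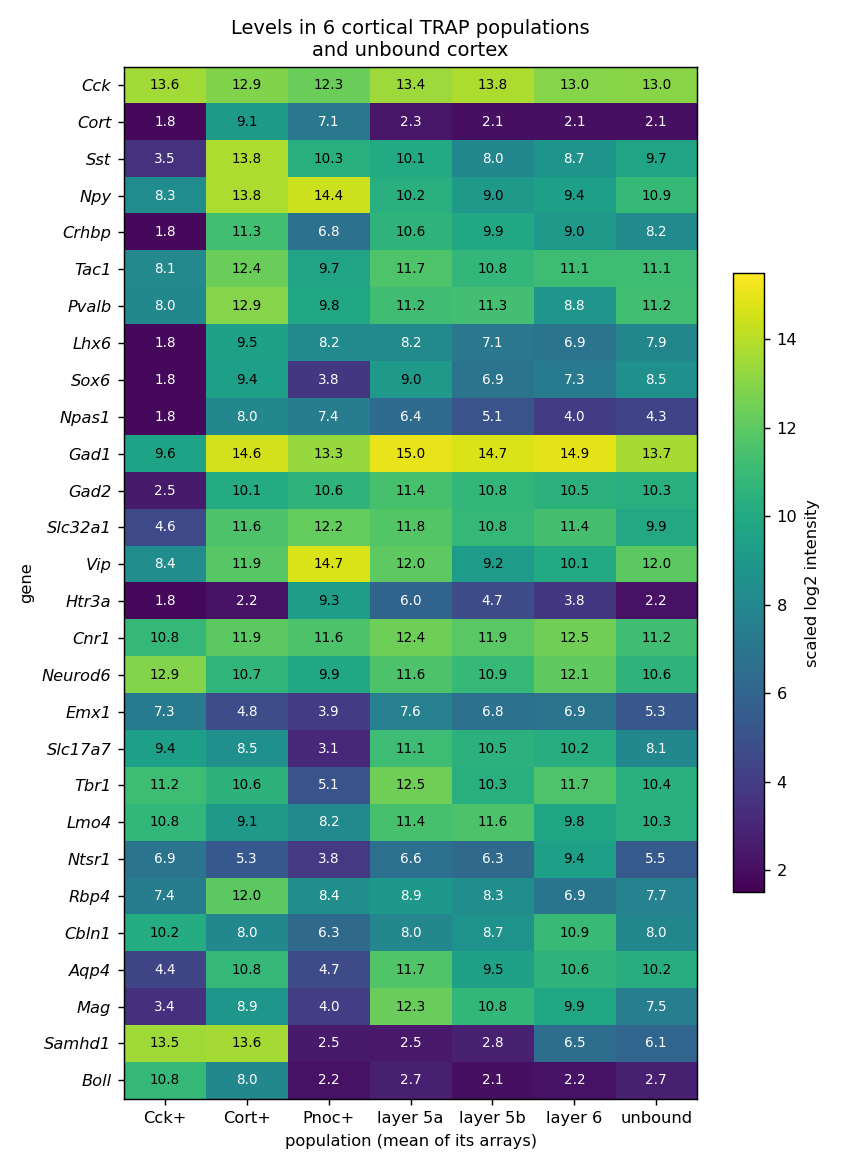
Mean scaled log2 intensity of 28 genes (rows) in Cck+, Cort+, Pnoc+, layer 5a, layer 5b and layer 6 TRAP and in unbound cortex (columns), printed in each cell to 1 decimal. Cck+ neurons have the lowest Gad1, Gad2 and Lhx6 and the highest Neurod6 of the 6 populations, and Samhd1 and Boll are high in Cck+ and Cort+ neurons.

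Genes named for cortical layers divided between the lines. Of 15 layer 5 genes, all measured, 13 were tested, 1 (7.69%) was higher in Cck+ and 7 (53.8%) in Cort+. The retinol-binding protein gene Rbp4 read 7.78, 7.22 and 7.22 in Cck+ TRAP and 12.16, 11.52 and 12.21 in Cort+ TRAP, with unbound values of 7.19 to 8.50. It was 23.5-fold lower in Cck+ TRAP (limma adjusted p = 2.4e-25). Rbp4 was also higher in Cort+ TRAP than in the layer 5a and 5b populations, which stood at 8.94 and 8.35. Ldb2, a LIM-domain-binding cofactor, was 2.11-fold higher in Cck+ TRAP (limma adjusted p = 0.0016), and that call ended without Cck+ replicate 3, at 0.98, and with the mean of all probe sets, at 0.96.

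Of 16 genes of layer 6 and subplate, all measured, 8 were tested, 2 (25%) were higher in Cck+ and 1 (12.5%) in Cort+. Ntsr1, the neurotensin receptor of corticothalamic neurons, read 7.13, 6.73 and 6.73 in Cck+ TRAP and 5.29, 5.47 and 5.29 in Cort+ TRAP, with unbound values of 4.68 to 5.94. The Cck+ arrays were above the unbound range but under the layer 6 mean of 9.42. Cplx3, a complexin of subplate cells, was 2.62-fold higher in Cck+ TRAP (limma adjusted p = 4.0e-04). Foxp2, a forkhead factor of layer 6, was 2.11-fold lower in Cck+ TRAP with control scaling, and that call was lost with quantile normalization, without further scaling and without Cort+ replicate 2. Of 16 genes of layers 2 to 4, 15 were measured, 5 were tested and limma called none with control scaling, 3 of them at an unadjusted p under 0.05, against 1 called higher in Cck+ after quantile normalization.

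Among peptide precursors, Cort+ TRAP held the higher levels for most. Of 20 listed genes 19 were measured and 11 tested, and 7 (63.6%) were higher in Cort+ and 1 (9.09%) in Cck+. The 7 were Cort, Sst, Npy, Tac1 and Crh, given above, with Pnoc and Pdyn. Pnoc, the nociceptin precursor, read 1.82 in all Cck+ arrays and 6.47 in all Cort+ arrays, against a mean of 10.17 in Pnoc+ neurons. Pdyn, the dynorphin precursor, read 2.43 in all Cck+ arrays and 6.61 in all Cort+ arrays. Nmb, the neuromedin B precursor, was the exception, with 6.16 in all Cck+ arrays and 2.21 in all Cort+ arrays. Its unbound values ran over 2.54 to 4.17, so Nmb lay just above the minimum in Cck+ TRAP and at least 1.11-fold above Cort+ TRAP. Penk, the enkephalin precursor, did not pass the test, at a difference of -0.54.

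Of 27 peptide receptor genes, all measured, 14 were under the minimum in both lines and 12 were tested. Higher in Cck+ were 2 (16.7%) and higher in Cort+ were 5 (41.7%), of which 2 under both scalings. The 5 were Npy2r, Adcyap1r1, Oprm1, Oxtr and Ntsr2, and Ntsr2 is also on the astrocyte list. Sstr2, a receptor for somatostatin and cortistatin, read 8.82, 8.62 and 8.68 in Cck+ TRAP and 7.28, 7.82 and 7.44 in Cort+ TRAP, with unbound values of 6.09 to 7.43. It was 2.29-fold higher in Cck+ TRAP (limma adjusted p = 8.0e-05). Crhr1, the receptor for corticotropin-releasing hormone, read 7.44, 7.24 and 6.34 in Cck+ TRAP and 5.77 in all Cort+ arrays. Both receptors were higher in Cck+ TRAP while Sst, Cort and Crh, which encode their ligands, were higher in Cort+ TRAP. That pattern was not general: with control scaling Npy and its receptor gene Npy2r were both higher in Cort+ TRAP, and Sstr3 was not called. Crhr1 was not called between Cck+ TRAP and unbound cortex, and its call between the lines was lost in 3 of the alternatives run.

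The oxytocin receptor gene Oxtr read 5.11 in all Cck+ arrays and 7.92, 7.68 and 7.85 in Cort+ TRAP, with unbound values of 6.12 to 6.92. Oprm1, the mu opioid receptor gene, read 1.82 in all Cck+ arrays and 6.12 in all Cort+ arrays, and was not among the genes tested after quantile normalization. Oxtr lay on opposite sides of the tissue in the 2 lines, while Oprm1 was higher in Cort+ TRAP than in unbound cortex, whose values ran over 1.87 to 1.9, and had a mean of 2.95 or less in the other cortical populations.

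Of the glutamate receptor genes tested, those called were higher in Cort+ TRAP. Of 18 ionotropic receptor genes 16 were measured and 10 tested, and 6 (60%) were higher in Cort+ and none in Cck+. Gria3, Grik1 and Grin3a were called lower in Cck+ TRAP than in unbound cortex, so their direction was fixed by the filter. Grik1, a kainate receptor subunit of interneurons, read 2.22 in all Cck+ arrays and 9.58, 8.92 and 9.29 in Cort+ TRAP, with unbound values of 6.78 to 9.23. Grin3a, an NMDA receptor subunit, read 6.06 in all Cck+ arrays and 9.41, 9.09 and 9.43 in Cort+ TRAP. Grin3a was 9.51-fold lower in Cck+ TRAP (limma adjusted p = 1.7e-23) and Grik1 at least 9.60-fold lower (limma adjusted p = 8.0e-28). Of the AMPA receptor subunits, Gria1 was 2.57-fold and Gria4 2.61-fold lower in Cck+ TRAP, and the call of Gria4 ended with the mean of all probe sets. Of 15 GABA receptor genes 11 were measured and 5 tested, and 3 (60%) were higher in Cort+. All 3 were called lower in Cck+ TRAP than in unbound cortex, so this direction was fixed by the filter. Of these, Gabrb2, a subunit of the GABA-A receptor, was 3.49-fold lower in Cck+ TRAP (limma adjusted p = 2.3e-05).

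Of 39 genes of potassium channels 35 were measured and 21 tested, with 1 higher in Cck+ and 5 in Cort+, shares of 4.76% and 23.8% against 9.28% and 21.6% of all tested genes. Kcnip1, a subunit of A-type channels, read 2.95, 2.66 and 2.61 in Cck+ TRAP and 9.13, 8.78 and 9.13 in Cort+ TRAP, with unbound values of 7.44 to 8.30. The small-conductance channels split: Kcnn1 read 7.46, 7.27 and 7.27 in Cck+ TRAP and 5.74 in all Cort+ arrays, and Kcnn2 read 6.63, 6.86 and 7.25 in Cck+ TRAP and 8.70, 8.70 and 8.61 in Cort+ TRAP. Kcnn1 was at least 2.52-fold higher (limma adjusted p = 1.1e-20) and Kcnn2 3.38-fold lower (limma adjusted p = 1.1e-08) in Cck+ TRAP. Of 27 genes of sodium, calcium and HCN channels 22 were measured and 12 tested. Higher in Cort+ were 8 (66.7%) with control scaling but 3 after quantile normalization. Scn1a, the sodium channel of fast-spiking interneurons, was 3.98-fold lower in Cck+ TRAP (limma adjusted p = 1.6e-09).

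Synaptic organizers and adhesion genes gave 3 members (10.3%) higher in Cck+ and 16 (55.2%) in Cort+ of 29 tested among 40 measured and 42 listed. Under both scalings 10 of the 16 were called. Nxph1, a neurexophilin that binds neurexins, read 7.07, 6.69 and 6.69 in Cck+ TRAP and 11.93, 11.40 and 12 in Cort+ TRAP, with unbound values of 9.12 to 10.36. Its relative Nxph3 read 9.77 in all Cck+ arrays and 8.29 in all Cort+ arrays, with an unbound median of 6.42. The 2 neurexophilins thus differed in opposite directions, by -4.96 and 1.48. Cbln1, a secreted protein that links neurexins to glutamate receptors of the delta type, read 10.74, 10.04 and 9.72 in Cck+ TRAP and 7.90, 8.20 and 7.99 in Cort+ TRAP, with unbound values of 7.41 to 8.51. It was 4.39-fold higher in Cck+ TRAP (limma adjusted p = 2.4e-05). Cbln2 was 2.19-fold higher (limma adjusted p = 0.0012), a call that ended without Cck+ replicate 1, at 0.95.

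Most genes shared by all neurons could not be tested between the lines, because they did not exceed unbound cortex. Of 12 pan-neuronal genes, all measured, 4 exceeded unbound cortex and were tested, and limma called none under either scaling, 0 of them at an unadjusted p under 0.05. Syt1, the calcium sensor of transmitter release, read 13.64, 13.40 and 13.37 in Cck+ TRAP and 13.61, 13.86 and 13.81 in Cort+ TRAP, so the lines overlapped. Map2, a microtubule protein of dendrites, was among the untested, with 10.98, 10.98 and 10.61 in Cck+ TRAP and 12.99, 13.62 and 13.26 in Cort+ TRAP, and both Map2 and the neurofilament gene Nefm were called lower in Cck+ TRAP than in unbound cortex. Without the requirement of TRAP over unbound cortex all 12 were tested and 1 was lower in Cck+. Of 15 immediate-early genes, which respond to activity, 10 were tested, 2 (20%) were higher in Cck+ and 1 (10%) in Cort+. Bdnf, a growth factor, and Junb, a transcription factor, were 2.05-fold and 2.10-fold higher in Cck+ TRAP, and the orphan receptor gene Nr4a3 was 2.58-fold lower. Each of those 3 calls was lost in at least 1 fit without a single array, among them Junb without Cck+ replicate 1, Bdnf without Cck+ replicate 1 or 3 or Cort+ replicate 3, and Nr4a3 without any array but Cort+ replicate 3. Fos did not pass, at a difference of 0.36. Of 15 calcium-binding protein genes 12 were tested, with 1, Necab3, higher in Cck+ and 2 in Cort+, shares of 8.33% and 16.7% that were below those of all tested genes. The call of Necab3 was lost without Cck+ replicate 1 or Cort+ replicate 1 or 2. Of 9 endocannabinoid genes 7 were tested and 2 (28.6%) were higher in Cort+. Of 20 measured serotonin and acetylcholine receptor genes 6 were tested, and 1 (16.7%), the serotonin receptor gene Htr5a, was higher in Cck+. Htr5a read 6.24 in all Cck+ arrays and 4.75 in all Cort+ arrays.

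The genes with the largest differences by rank were unlike on the 2 sides. On the Cort+ side the 15 genes at the top held Sst, Crhbp, Lhx6, Sox6, Cort, Grik1 and Slc32a1 of interneurons beside Ttr, Phgdh, Gpr37l1, Vcam1 and Pdgfra, of which Pdgfra and Ttr are on lists of other cells. Phgdh, a serine-synthesis enzyme of astrocytes, read 2.37, 2.37 and 2.30 in Cck+ TRAP and 10.04, 10.33 and 10.44 in Cort+ TRAP, inside the unbound range of 9.34 to 10.81. Vcam1, a cell adhesion molecule, read 1.82 in all Cck+ arrays and 8.96, 9.04 and 8.95 in Cort+ TRAP. These genes stood near the tissue level in Cort+ TRAP and near the floor in Cck+ TRAP.

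On the Cck+ side the 15 genes were weak, with Cck+ values mostly between 6 and 8. Blnk, a signalling adaptor known from B cells, led with 8.14, 7.66 and 7.08 in Cck+ TRAP and 1.97, 2.46 and 1.97 in Cort+ TRAP, with unbound values of 3.83 to 4.79. Efcab10, an EF-hand protein gene, read 8.24, 7.39 and 7.28 in Cck+ TRAP and 2.29 in all Cort+ arrays. Car3, a carbonic anhydrase, read 8, 7.48 and 8.19 in Cck+ TRAP and 3.69 in all Cort+ arrays. Blnk was not particular to Cck+ neurons, since the populations of layers 5a, 5b and 6 stood at 6.84, 6.35 and 7.24.

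Against unbound cortex, 9473 genes were tested for Cck+ TRAP, of which 1453 (15.3%) were higher and 2161 (22.8%) lower. Against the unbound array of the Cck line alone the balance turned, with 2502 higher and 1290 lower. For Cort+ TRAP 9553 were tested, of which 1227 (12.8%) were higher and 425 (4.45%) lower. Called under both scalings were 14.5% as higher and 18.1% as lower in Cck+ TRAP, and 9.71% as higher and 4.2% as lower in Cort+ TRAP. Both comparisons used the same 9 unbound arrays, so their values are given side by side only. All 17 measured astrocyte markers were lower in Cck+ TRAP than in unbound cortex, and in Cort+ TRAP none was lower and 2 were higher. Of the glutamatergic genes 5 were higher than unbound cortex in Cck+ TRAP and none in Cort+ TRAP. Of the somatostatin class 2 were higher and 9 lower in Cck+ TRAP, and 9 were higher and none lower in Cort+ TRAP.

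Beside Cort, the genes farthest above unbound cortex stood high in both lines, and 52 genes were called and at least 8-fold above unbound cortex in each line, by a rule chosen after their values were seen. Samhd1, an enzyme that breaks down nucleotides for DNA synthesis, read 13.40, 13.57 and 13.56 in Cck+ TRAP and 13.69, 13.57 and 13.57 in Cort+ TRAP. Its unbound values had a lowest of 4.25, a median of 4.5 and a highest of 9.44. Cacng7, an auxiliary subunit of AMPA receptors, read 10.40, 10.93 and 10.93 in Cck+ TRAP and 11.48, 10.91 and 11.19 in Cort+ TRAP, with an unbound median of 1.87. Neither gene passed the test between the lines (limma adjusted p = 0.94 for Samhd1 and 0.60 for Cacng7), and both lay above every unbound array. Boll, an RNA-binding protein gene of germ cells, read 10.41, 11 and 11 in Cck+ TRAP and 8.01 in all Cort+ arrays, and was 6.95-fold higher in Cck+ TRAP (limma adjusted p = 3.6e-04). Samhd1 stood at 2.52 in Pnoc+ and 2.45 and 2.76 in layer 5a and 5b neurons and 6.55 in layer 6 neurons. In cerebellum it stood at 13.40 in Purkinje and 13.12 in granule neurons, and also at 12.35 in astrocytes and 12.3 in Bergmann glia. Cacng7 stood at 9.97 and 10.13 in these 2 glial populations, so neither gene was particular to neurons. Other shared genes were also high in the layers: of the 52, 40 stood at least 1 log2 unit above unbound cortex in layer 5a, 15 in layer 5b, 27 in layer 6 and 3 in Pnoc+ neurons. Ptprk, a receptor phosphatase, had a mean of 11.49 in layer 5a neurons.

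The neighbours of the drivers on the chromosome were read because a BAC can carry more than its driver. Of the 5 annotated genes on each side of Cck, 4 were measured and 1 was tested between the lines, Sec22c, which did not pass (limma adjusted p = 0.078). Of those around Cort, 6 were measured, 5 were tested and 3 of the 5 were higher in Cort+ TRAP, against 21.6% of all tested genes. Dffa, whose product restrains a DNA-cutting enzyme of apoptosis and which lies next to Cort, read 7.44 in all Cck+ arrays and 9.16, 9.18 and 9.20 in Cort+ TRAP, with unbound values of 7.01 to 8.62. Pgd, an enzyme of the pentose phosphate pathway, was 2.56-fold lower in Cck+ TRAP (limma adjusted p = 3.0e-06), and Kif1b, a kinesin motor, was 3.27-fold lower (limma adjusted p = 2.1e-07). Dffa and Pgd were called higher in Cort+ TRAP than in unbound cortex. Kif1b was not, at a difference of 0.58, and was called lower than unbound cortex in Cck+ TRAP, at -1.12. Among the 24 populations Cort+ neurons ranked 8 in Dffa, 2 in Pgd and 3 in Kif1b. The layer 5a population stood higher than Cort+ neurons in all 3 genes, at 9.53, 13.52 and 13.90. The part of the BAC in the levels of these genes was not tested.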

How the data were processed

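RNA of 3 Cck+ and 3 Cort+ TRAP arrays and 9 unbound cortex arrays was read on Affymetrix arrays of 45101 probe sets. Per the labels, 15 ng of RNA was amplified in 2 cycles and labelled with biotin. The authors deposited linear intensity values, made with GCRMA (version not given) per the submitters' processing notes and within each group per the series text. They were turned here into log2 values with a floor of 1, and each of 30 groups was shifted by 1 constant to bring 18 biotinylated control probe sets to the same mean. A gene took its probe set with the highest mean (18194 genes, 9012 with several probe sets; 34958 probe sets carry 1 symbol, 932 several and 9211 none). Different probe sets of a gene can disagree.

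limma 3.58.1 in R 4.3.3 fitted all 107 arrays with 1 coefficient per group, eBayes with trend, and Benjamini-Hochberg adjustment over the tested genes. SEs and p-values thus rest on a gene's spread within all 30 groups, and not within the compared groups alone. A gene was tested with a mean of at least 6 in a compared group and, between the lines, above unbound cortex in one of them. It was called at an adjusted p under 0.05, a change of at least 2-fold and a level above unbound cortex on the higher side. Folds are lower bounds where the lower mean is under 6, which is then set to 6. Exact permutation of 3 against 3 arrays cannot go below 0.1. Replicates are separate TRAP preparations per the series text. Precision is limited by the small number of arrays per group.

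The 33 gene lists (483 genes, 446 measured), the members and the tests were chosen with earlier results of these data known. Genes named are the drivers, Rpl10a, list members, the 15 largest differences per direction called under both scalings without overlapping arrays, the 5 largest per direction against unbound cortex and 5 neighbours on each side of a driver. The fit was run on simulated data with normal noise. That run left out the requirement of TRAP over unbound cortex and values identical within a group, so it does not test them. Alternatives are given at the end. Promoters are those of RefSeq, GRCm38.p6.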

Additional observations from a re-analysis of the deposited data

Results flagged for a closer look

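Among 112 unbound groups of 9 arrays tested for an array apart from the rest, 16 held one, while chance gives about 1 in 20. Lowest and apart were Sst at 7.72, Nos1 at 5.36 and Mag at 5.96, all on unbound array 4, and Tbr1 at 8.23. Highest and apart were Dlx1 at 10.64, Kcnc1 at 13.29, Kcnip1 at 8.3, Nxph3 at 8.56, Htr5a at 5.87, Kcnn1 at 5.43, Blnk at 4.79 and Car3 at 6.66. Htr3a at 2.21, Nmb at 4.17, Oprm1 at 1.9 and Fut2 at 2.24 were also highest and apart, all under the minimum of 6.

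The genes of the next sentences were called lower than unbound cortex in Cck+ TRAP and higher than it in Cort+ TRAP, and each value is the difference of Cck+ minus Cort+, which limma tested directly. Among interneuron genes it was -10.22 for Sst, -5.44 for Npy, -9.44 for Crhbp, -7.69 for Lhx6, -3.06 for Maf, -7.03 for Slc32a1, -4.31 for Tac1, -4.93 for Pvalb, -4.51 for Cox6a2, -4.15 for Btbd11 and -2.9 for Nos1. Among receptor, channel and adhesion genes it was -4.96 for Nxph1, -3.25 for Grin3a, -7.04 for Grik1, -6.28 for Kcnip1 and -2.7 for Oxtr, and for the layer 5 gene Parm1 it was -2.48. Among markers of glia it was -5.84 for Slc1a3, -5.48 for Mag, -4.9 for Csf1r and -5.02 for C1qb. The largest adjusted p of these differences was 3.2e-10, for Maf.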

How the results depend on the processing

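No called difference of a named gene changed direction under the alternatives run, whereas uncalled differences near 0, such as that of Rpl10a between the lines (-0.24 to 0.01 without 1 array), did. Between the lines, the 648 genes higher in Cck+ and 1512 higher in Cort+ became 1353 and 862 after quantile normalization, 420 and 953 with a minimum of 8, and 151 and 774 with limma's treat at a 2-fold bound. Chosen after seeing the data, leaving out genes identical in all 3 arrays of a line gave 428 and 856. Those higher in Cort+ were 900 with the mean of all probe sets, 2287 with no requirement of TRAP over unbound cortex, 792 with a 1.5-fold one and, both added after seeing the data, 423 when also called over unbound cortex and 860 under both scalings. Those higher in Cck+ were 1022 with no expression filter. Leaving out 1 array gave 439 to 831 higher in Cck+ and 1355 to 1644 higher in Cort+, where 1355 was without Cort+ replicate 2.

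In Cck+ TRAP against unbound cortex, genes lower numbered 1250 with the mean of all probe sets, 3368 without the filter, 1234 with a minimum of 8 and 1419 without identical values. With treat 631 were higher and 1319 lower, and with the unbound array of the Cck line alone 2502 and 1290. Leaving out 1 array gave 1179 to 1689 higher and 2047 to 2308 lower. In Cort+ TRAP against unbound cortex, genes lower numbered 654 without further scaling, 673 with quantile normalization, 1082 without the filter and 279 without identical values. There, 756 were higher with the mean of all probe sets, 803 higher and 147 lower with a minimum of 8, and 437 and 115 with treat. Leaving out 1 array gave 1134 to 1313 higher and 348 to 541 lower. The cause of these shifts was not tested.

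With the replicate block, 495 genes were higher in Cck+ and 1442 in Cort+, and Junb, Crhr1 and Ttr lost their calls at adjusted p of 0.075, 0.062 and 0.07. Arrays of the same number correlated at -0.25, 0 and -0.01 in their deviations, and arrays of different number at -0.17 to 0.24. With 3 arrays per line such values cannot decide whether the numbers pair the samples. Treat ended the calls of 23 named genes between the lines, among them Neurod6, Cnr1, Crh and Gria1.
Signal over background limits the folds: the lower side was under the minimum of 6 in 182 of the 648 genes higher in Cck+ and in 599 of the 1512 higher in Cort+, so their folds are lower bounds.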

Other observations

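Gene families were read by symbol after the values had been seen, so these counts are descriptions. Of 74 tested genes of the mitochondrial ribosome, which translates the proteins encoded in mitochondrial DNA, 26 were higher in Cck+ and 1, Mrps31, in Cort+ TRAP, and the calls were the same in number under both scalings. That is 35.1% higher in Cck+, against 9.28% of all tested genes, and the median difference of the 76 measured was 0.78. All 648 genes higher in Cck+ were called under both scalings, so that agreement is not particular to this family. Of 36 tested genes of the cytosolic ribosome 1 (2.78%) was higher in Cck+, and their measured median was 0.33. Of 41 tested complex I genes named Nduf, 6 (14.6%) were higher in Cck+ and 1 (2.44%), Ndufs1, in Cort+. Of 133 tested solute carriers, 5 (3.76%) were higher in Cck+ and 44 (33.1%) in Cort+, against 9.28% and 21.6% of all tested genes. Under both scalings 24 of the 44 were called, which is 18% against 12.3% of all tested genes. Zinc finger genes named Zfp had 12 higher in Cck+ and 41 in Cort+ of 141 tested, of which 19 of the 41 under both scalings. These shares, 8.51% in Cck+ and 13.5% in Cort+ under both scalings, were near the 9.28% and 12.3% of all tested genes.

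Genes called on the 2 sides differed in length. The median genomic span was 9.15 kb for the 648 genes higher in Cck+, 53.6 kb for the 1506 genes higher in Cort+ that had a span, and 20.8 kb for tested genes not called.

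Y-linked genes differed between arrays, and the sex of the mice is not given in the sources used here. Kdm5d, a histone demethylase, read 2.57, 4.24 and 2.53 in Cck+ TRAP and 8.2 in all 3 Cort+ arrays, with unbound values of 1.87 to 6.73. Eif2s3y, a translation factor, read 6.89, 7.95 and 2.11 in Cck+ TRAP and 9.29, 9.29 and 9.31 in Cort+ TRAP, with unbound values of 1.87 to 9.51. The Cck+ arrays lay below the Cort+ arrays in both genes, and the part of sex in other differences was not tested.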
